A study of Mus musculus with 6 samples.

Results

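The 9 genes described here, Stx1a, Stx4a, Snap25, Vamp2, Vamp3, Unc13a, Rims2, Cplx2 and Cadps, encode the proteins that dock, prime and fuse secretory granules at the plasma membrane. They were chosen by name from 21813 gene symbols in the table, taking for each symbol the RefSeq transcript with the highest mean level over the libraries. All 9 were present and all 9 averaged at least 1 RPKM (read density, corrected for transcript length and sequencing depth), the level required for testing. Islets of Langerhans were isolated with collagenase from 3 Ucn3 null male mice and 3 wild-type male littermates at an age of 3 months, with 1 RNA library per animal. Ucn3 encodes urocortin 3, a peptide of mature beta cells. The labels do not describe how the null allele was made or the strain, and they call the material mixed in cell type although the extraction text mentions a cell sort.

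Fusion is driven by SNARE proteins. A vesicle SNARE on the granule (VAMP2 or VAMP3) zips together with a syntaxin and a SNAP25-type protein on the plasma membrane into a bundle of helices that pulls the membranes together. MUNC13 (Unc13a) opens syntaxin, RIM2 (Rims2) tethers granules near calcium channels, CAPS (Cadps) primes dense-core granules and complexin (Cplx2) clamps and then assists the assembled complex. In beta cells SNAP25, syntaxin 1A and VAMP2 are the classic set for insulin exocytosis, while syntaxin 4 and VAMP3 are more widely expressed.

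Several of these genes have close paralogs, so the coding sequences are shown to make clear what the reads have to tell apart. For 2 pairs, the vesicle SNAREs Vamp2 and Vamp3 and the plasma-membrane SNAREs Snap25 and Snap23, the most alike stretch of 90 coding bases within 1 exon is given 5′ to 3′ on the coding strand, from GENCODE M21 transcripts on the build GRCm38. Capitals mark the bases at which the 2 genes of a pair differ. All of these stretches lie in the part of the gene that codes for a SNARE motif.
Vamp2 (exon 3 of 5, plus strand, chr11:69089773-69089862): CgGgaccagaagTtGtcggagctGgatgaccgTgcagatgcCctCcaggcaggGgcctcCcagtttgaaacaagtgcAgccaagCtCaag
Vamp3 (exon 3 of 5, minus strand, chr4:151050944-151051033): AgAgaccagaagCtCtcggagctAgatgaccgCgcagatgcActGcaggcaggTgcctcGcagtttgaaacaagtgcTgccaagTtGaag
Snap25 (exon 7 of 8, plus strand, chr2:136777343-136777432): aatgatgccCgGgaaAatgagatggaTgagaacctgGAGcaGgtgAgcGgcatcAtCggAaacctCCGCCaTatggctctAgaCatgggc
Snap23 (exon 7 of 8, plus strand, chr2:120596650-120596739): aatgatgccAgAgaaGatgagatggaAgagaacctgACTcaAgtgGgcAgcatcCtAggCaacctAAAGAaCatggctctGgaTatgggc

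Vamp2 and Vamp3 differed at 13 of the 90 bases, in 10 of 30 codons, and all 10 of these codons were synonymous, so both genes code for the same residues there. Snap25 and Snap23 differed at 21 bases, with 8 codons that change the residue. The longest run of identical bases between the whole transcripts was 17 for Vamp2 and Vamp3 and 25 for Snap25 and Snap23. For the priming genes, the longest shared run was 32 bases for Unc13a and Unc13b, 32 for Cplx2 and Cplx1 and 29 for Cadps and Cadps2. The read length and the treatment of reads that match several genes are not given in the sources used here.

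The labels matched the targeted gene. Ucn3 was at 136, 157 and 155 RPKM in wild type replicates 1 to 3 and at 1.61, 1.63 and 1.80 RPKM in Ucn3 null replicates 1 to 3. Library depth, estimated from the spacing of low values, was 42450000 to 51760000 reads. The islet hormone transcripts were abundant in both groups, with Ins2, which encodes insulin, at 217124 ± 15106 RPKM in the wild-type group against 194907 ± 9322 RPKM in null islets (SD, 3 animals each). Some marker lists of other cells differed between the same groups. The mean log2(RPKM + 1) of 15 acinar markers, from the exocrine tissue around islets, was 6.92, 4.09 and 5.82 in wild type and 8.61, 7.98 and 6.67 in null libraries. The 4 delta cell markers were at 5.46 ± 0.09 and 4.54 ± 0.08 and the 7 tested ductal markers at 4.55 ± 0.26 and 3.96 ± 0.32 (SD, 3 animals each). The acinar and the ductal means overlapped between groups, and the delta means did not. The 9 beta cell markers were at 9.99 ± 0.06 in wild type on the same scale, with a median difference of -0.01 between genotypes. The labels call the material mixed in cell type, so fewer cells of a type and less RNA per cell cannot be told apart.

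Among the 9 genes the level, which RPKM expresses per length, spanned 23.9-fold. The order from highest to lowest mean was Snap25, Vamp2, Cplx2, Cadps, Vamp3, Stx4a, Unc13a, Rims2 and Stx1a, and each gene stood above the next in 6 of 6 libraries. The ranges over libraries overlapped only for Vamp2 with Cplx2 and for Stx4a with Unc13a. Snap25 lay above 97.7% of the tested genes and Stx1a above 30.6%, while the median of the 9 genes lay at 79.9%. Of the plasma-membrane SNARE partners, Snap25 was among the abundant transcripts and Stx1a lay below the median tested gene, 6.24 RPKM.

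**Figure D1:**
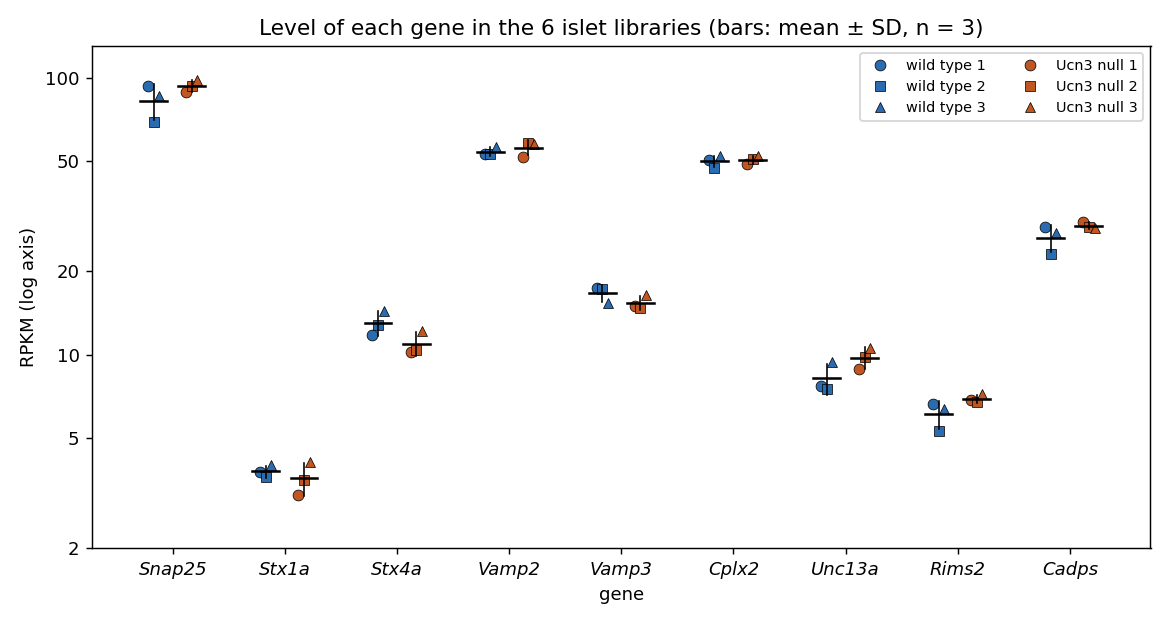
RPKM of the 9 genes (log axis) in each of the 6 libraries, with wild type in blue, Ucn3 null in orange, a marker shape for each replicate, and black bars for mean ± SD (n = 3). The genes keep their order in both genotypes, from Snap25 near 90 to Stx1a near 4, and the groups lie close together for each gene.

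None of the 9 genes passed the test between null and wild-type islets. In limma over 12652 genes, 2 genes passed an adjusted p of 0.05, which is 0.0158% of those tested, and 0 of them were among the 9. At an unadjusted p under 0.05, 1 of the 9 genes was called, Stx4a, against 9.36% of all tested genes. In its direction, lower in null, the share of all tested genes was 7.9%. The groups did not overlap for 1 of the 9 genes, Rims2, against 15.2% of all tested genes in either direction and 1.9% in the direction higher in null. Counted in either direction, both shares were near the background, and a single gene of 9 is too few to compare within 1 direction. The difference in log2(RPKM + 1), null minus wild type, was positive for 6 and negative for 3 of the 9 genes, with a median of 0.05 and a range from -0.23 to 0.22. Over all tested genes 38.3% of differences were positive and the median was -0.03.

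**Figure D2:**
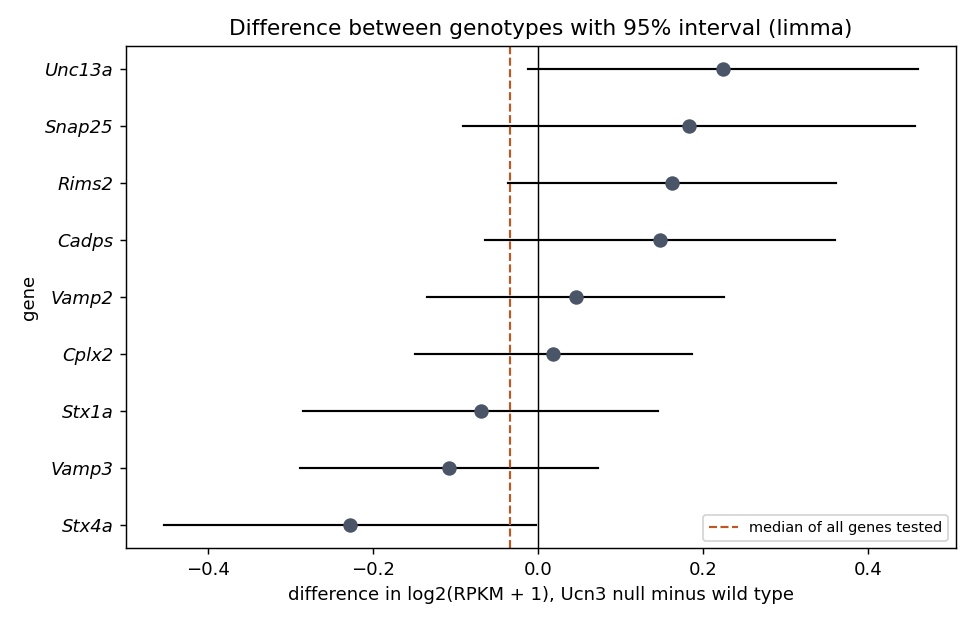
Difference in log2(RPKM + 1), null minus wild type, for each of the 9 genes (points) with its 95% interval from limma (lines); the dashed line is the median of all genes tested. The interval of Stx4a ends just below 0, at -0.003, and those of the other 8 genes include 0.

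Of the plasma-membrane SNAREs, Snap25, which contributes a pair of helices to the complex, was at 93.0, 69.2 and 85.5 RPKM in the wild-type group against 88.9, 93.1 and 97.8 RPKM in null islets. Wild type replicate 2 stood below all other libraries, and wild type replicate 1 lay within the null range. The difference was 0.18 (SE 0.12, limma adjusted p = 0.67), with a 95% interval from 0.94-fold to 1.37-fold. Without wild type replicate 2 it was 0.06 and with the acinar mean as a covariate 0.01. It was 0.27 without wild type replicate 1 and 0.25 with libraries scaled to equal totals without the acinar markers. Stx1a, the syntaxin of regulated exocytosis in neurons and endocrine cells, was at 3.76, 3.61 and 3.98 RPKM in the wild-type group against 3.11, 3.53 and 4.09 RPKM in null islets. The null group held both the lowest and the highest library. Its difference was -0.07 (SE 0.09, limma adjusted p = 0.86), with an interval from 0.82-fold to 1.11-fold. About 345 to 416 reads stood behind each Stx1a value, and counting error alone at the lower number is 5.38%, against a spread between libraries of 4.97% of the mean in wild type and 13.8% in null islets.

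Stx4a, a widely expressed plasma-membrane syntaxin that also takes part in insulin release, was at 11.8, 12.8 and 14.4 RPKM in the wild-type group against 10.3, 10.4 and 12.2 RPKM in null islets. Ucn3 null replicates 1 and 2 lay below every wild-type library, and Ucn3 null replicate 3 lay within the wild-type range. The SDs were 1.31 and 1.09 RPKM and the difference was -0.23 (SE 0.10, unadjusted p = 0.048 and limma adjusted p = 0.53). The unadjusted p was 0.47 with the acinar mean as a covariate, where the difference was -0.10, and 0.034 with limma-voom on estimated reads, where it was -0.31. With 1 library left out it ran from 0.018 without Ucn3 null replicate 3 to 0.165 without wild type replicate 3.

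The vesicle SNAREs moved little. Vamp2, the synaptobrevin of synaptic vesicles and insulin granules, was at 52.7, 52.8 and 56.4 RPKM in the wild-type group against 51.8, 57.9 and 57.7 RPKM in null islets. The groups overlapped, and the difference of 0.05 (SE 0.08, limma adjusted p = 0.90) had an interval from 0.91-fold to 1.17-fold. Vamp3, also called cellubrevin, which serves recycling endosomes and constitutive vesicles, was at 17.4, 17.2 and 15.3 RPKM in the wild-type group against 14.9, 14.7 and 16.4 RPKM in null islets. Wild type replicate 3 lay within the null range. The difference was -0.11 (SE 0.08, limma adjusted p = 0.70), with an interval from 0.82-fold to 1.05-fold.

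Complexin 2, the product of Cplx2, had the smallest difference of the set. It was at 50.5, 47.3 and 51.9 RPKM in the wild-type group against 48.7, 50.9 and 52.0 RPKM in null islets, which overlapped almost throughout. The difference was 0.02 (SE 0.07, limma adjusted p = 0.96), with an interval from 0.90-fold to 1.14-fold. Its sign changed under 5 of 16 alternatives. Cplx2 lies on chromosome 13, as does Ucn3, with the coding stretch most like that of Cplx1 in exon 3 of 4.

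The priming genes Unc13a, Rims2 and Cadps had positive differences, none of which passed. Unc13a, whose product opens syntaxin for assembly, was at 7.70, 7.53 and 9.44 RPKM in the wild-type group against 8.84, 9.81 and 10.6 RPKM in null islets. Wild type replicate 3 exceeded Ucn3 null replicate 1, and the other wild-type libraries lay below all null libraries. The difference was 0.22 (SE 0.10, limma adjusted p = 0.54), with an interval from 0.99-fold to 1.38-fold. It was 0.18 without wild type replicate 1, 0.17 without wild type replicate 2 and 0.27 with the acinar mean as a covariate. Rims2, the tether between granule and calcium channel, was at 6.63, 5.32 and 6.36 RPKM in the wild-type group against 6.85, 6.73 and 7.19 RPKM in null islets. For the transcript used the groups did not overlap. The gap between 6.63 and 6.73 RPKM was smaller than the SD of either group, 0.69 and 0.24. The difference was 0.16 (SE 0.09, limma adjusted p = 0.59), with an interval from 0.98-fold to 1.28-fold. With the acinar mean as a covariate it was 0.04, and with libraries scaled to equal totals without the acinar markers 0.22.

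Cadps, which primes dense-core granules, was at 28.8, 23.1 and 27.4 RPKM in the wild-type group against 30.1, 28.9 and 28.7 RPKM in null islets. Wild type replicate 2 was again the lowest library, and wild type replicate 1 lay within the null range. The difference was 0.15 (SE 0.09, limma adjusted p = 0.65), with an interval from 0.96-fold to 1.28-fold. With the acinar mean as a covariate it was -0.03. It was 0.21 without wild type replicate 1, and also with libraries scaled to equal totals without the acinar markers. Thus the 3 priming genes and Snap25 each held their lowest value in the same wild-type library. For Unc13a, wild type replicate 1 was nearly as low, at 7.70 RPKM against 7.53 RPKM in wild type replicate 2.

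The table carried several transcripts for Rims2 and Cadps and 1 for each of the other 7 genes, so splice forms such as the alternative exon of Snap25 were not analysed here. The 2 Cadps transcripts had a constant ratio in all libraries and so carry the same reads. The least abundant of the 4 Rims2 transcripts, with a length of 3685 bases against 4800 for the transcript used, was at 63.1%, 79.8% and 79.0% of its RPKM in wild type and 61.7%, 70.6% and 69.6% in null islets. Wild type replicate 1 and Ucn3 null replicate 1 were the low libraries, and the groups overlapped.

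Wild type replicate 2 had the lowest value for 5 of the 9 genes (Snap25, Cplx2, Unc13a, Rims2 and Cadps), against 26.3% of all tested genes. Of 28 other priming, tethering and regulator genes tested, 15 were also lowest there. Ucn3 null replicate 3 had the highest value for 5 of the 9 genes, against 26.4% of all tested genes. Wild type replicate 2 also had the lowest acinar mean, 4.09, and the steepest dependence on transcript length. Its median deviation from the gene mean in log2(RPKM + 1) fell from 0.08 for transcripts up to 1500 bases to -0.09 for those over 5000 bases. In that library Snap25 stood at -0.33, Rims2 and Cadps at -0.25 and Unc13a at -0.22, values that follow in part from naming the genes that were lowest there. Unc13a was nearly as low in wild type replicate 1, at -0.19. Without wild type replicate 2 the differences were 0.08 for Rims2, 0.06 for Cadps and 0.17 for Unc13a, and 0 of the 9 genes had an unadjusted p under 0.05. With any other library left out the number was 0 to 3, the highest without wild type replicate 1 (Rims2, Snap25 and Stx4a). It was 3 with upper-quartile scaling (Rims2, Stx4a and Unc13a) and 2 with median-ratio scaling (Rims2 and Unc13a). The part of length or exocrine RNA in the low values was not tested.

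**Figure D3:**
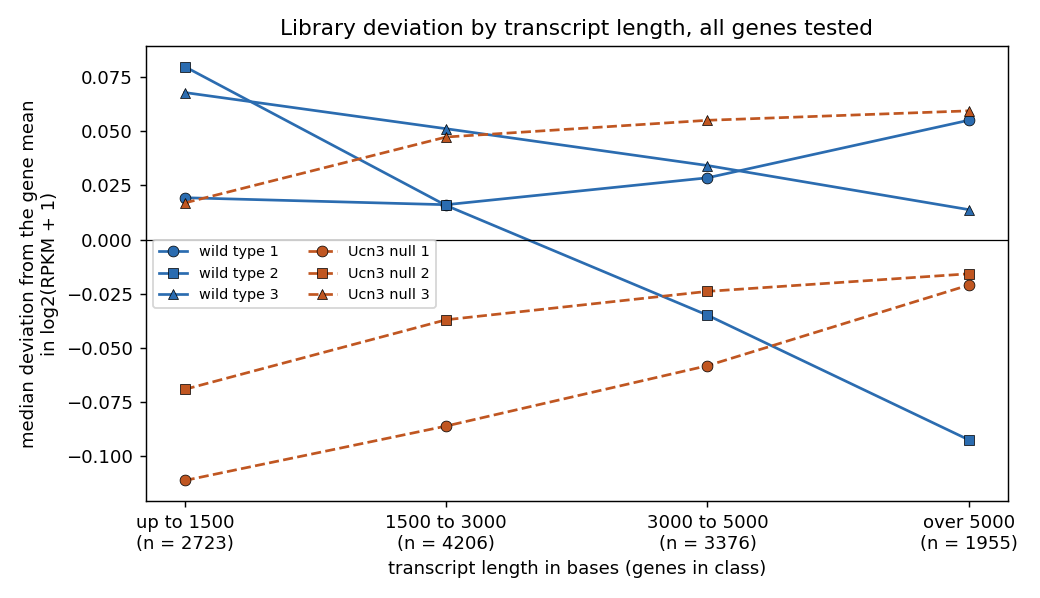
Median deviation of each library from the gene mean, in log2(RPKM + 1), for all tested genes in 4 classes of transcript length; blue lines are wild type and orange dashed lines Ucn3 null. Wild type replicate 2 falls from 0.08 in the shortest to -0.09 in the longest class, while Ucn3 null replicate 1 climbs from -0.11 to -0.02.

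Length also moved with the genotype contrast. The median difference over all tested genes ran from -0.10 for transcripts up to 1500 bases, the class of Stx4a, through -0.05 for 1500 to 3000 bases, the class of Stx1a, Snap25, Vamp2 and Vamp3, and -0.01 for 3000 to 5000 bases, the class of Rims2 and Cplx2, to 0.02 above 5000 bases, the class of Unc13a and Cadps. With a line in log2 length removed from each library, Stx4a had a difference of -0.21, Unc13a 0.18, Rims2 0.14 and Cadps 0.12, and Snap25 was at 0.19.

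Ratios between paralogs were compared next. A ratio of RPKM within a library does not depend on how the library was scaled, but the tests used differences of log2(RPKM + 1), in which the added 1 weighs on genes as low as Rims1 and Cplx1. Snap25 exceeded Snap23, its widely expressed relative, 7.62-fold, 6.85-fold and 7.30-fold in wild type and 7.92-fold, 8.28-fold and 8.12-fold in null islets. The groups did not overlap, and the log2 ratio was higher in null by 0.16 (exact two-sided permutation p = 0.1, the smallest that 3 against 3 allows, and 0.47 after Benjamini-Hochberg adjustment over 7 ratios). Vamp2 exceeded Vamp3 by 3.26 ± 0.36-fold in wild type and 3.64 ± 0.25-fold in null islets (SD, 3 animals each, exact permutation p = 0.3). Stx1a stood at 0.29 ± 0.02 of Stx4a in wild-type islets against 0.33 ± 0.02 in null islets (SD, 3 animals each, exact permutation p = 0.2). Both of these ratios overlapped between groups.

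Unc13a and Unc13b, which share the priming role, were at nearly equal levels, with a ratio of 1.09 ± 0.12 in wild-type islets against 1.17 ± 0.07 in null islets (SD, 3 animals each, exact permutation p = 0.4). Cadps exceeded Cadps2 by 9.69 ± 1.25-fold and 10.5 ± 0.58-fold (SD, 3 animals each, exact permutation p = 0.3). Rims1 and Cplx1 averaged under 1 RPKM, at 0.29 ± 0.06 and 0.22 ± 0.09 RPKM in wild type (SD, 3 animals each). Rims3, a short RIM form named here after its values were seen, stood above Rims2, at 18.9 ± 4.33 RPKM in the wild-type group against 22.6 ± 4.14 RPKM in null islets (SD, 3 animals each, limma adjusted p = 0.70). The log2(RPKM + 1) ratio differed by 0.12 for Rims2 to Rims1 (exact permutation p = 0.4) and by 0.003 for Cplx2 to Cplx1 (exact permutation p = 1.0). All 7 of these log2(RPKM + 1) differences were positive and none passed. That of Cplx2 to Cplx1 turned negative under 4 of its 8 alternatives, and the wild-type group had a mean RPKM ratio of 244 ± 84.1 against 220.0 ± 34.9 for null islets (SD, 3 animals each). Without wild type replicate 2 the difference for Cadps to Cadps2 was 0.02 and that for Rims2 to Rims1 0.06, and without wild type replicate 1 that for Unc13a to Unc13b was 0.03. With a pseudocount of 0.1 that for Rims2 to Rims1 was 0.07.

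**Figure D4:**
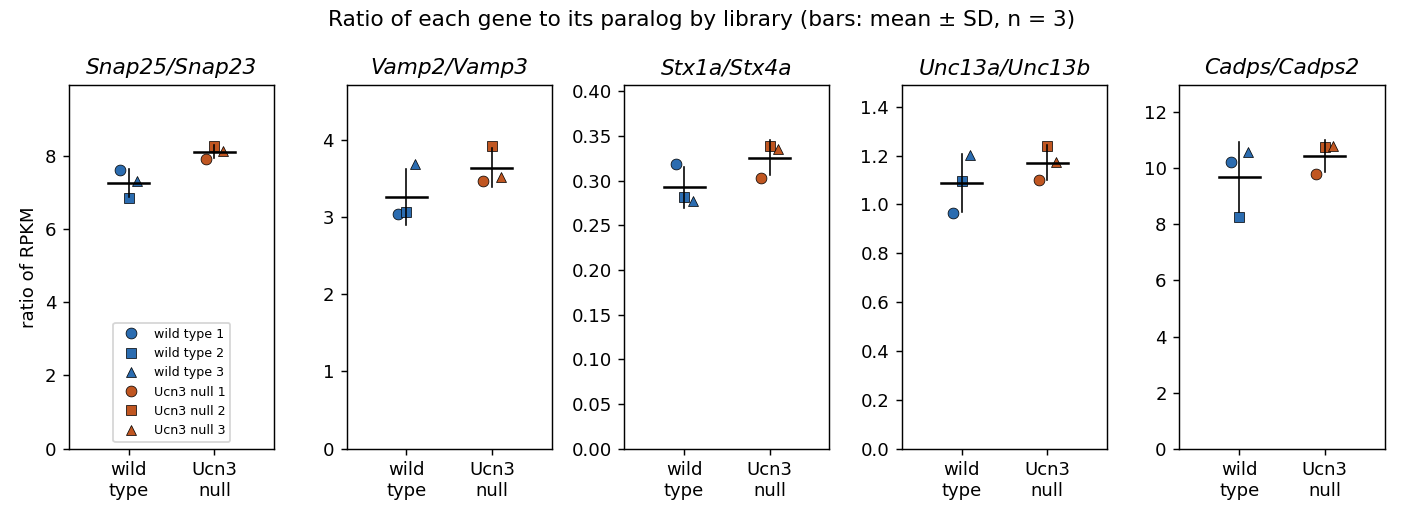
Ratio of RPKM of 5 genes to their paralogs in each library, on linear axes that start at 0, with bars for mean ± SD (n = 3). The Snap25 to Snap23 ratio lies between 6.85 and 7.62 in wild type and between 7.92 and 8.28 in null libraries, and the other 4 ratios overlap between the groups.

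Within classes of plasma-membrane and vesicle SNAREs, the shares of RPKM showed which form led. Snap25 made up 87.9% ± 0.58 of the sum of Snap25 and Snap23 in wild-type islets against 89.0% ± 0.21 in null islets (SD, 3 animals each). The groups did not overlap, which restates the ratio of Snap25 to Snap23 above and adds no further result. Vamp2 made up 50.9% ± 1.35 and 54.4% ± 1.08 of the sum of Vamp1, Vamp2, Vamp3 and Vamp8 (SD, 3 animals each), also with no overlap between groups. The shares were not tested between genotypes. Among all tested genes, taken singly, the groups did not overlap for 15.2%. Vamp8, a vesicle SNARE of exocrine and endosomal secretion, was at 34.0 ± 3.94 RPKM in the wild-type group against 29.9 ± 1.58 RPKM in null islets (SD, 3 animals each, limma adjusted p = 0.62). It lies in the denominator of the Vamp2 share.

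Among the syntaxins Stx1a, Stx2, Stx3 and Stx4a, Stx4a held 43.5% ± 1.83 of the RPKM in wild-type islets against 41.3% ± 0.14 in null islets (SD, 3 animals each). The lowest wild-type share, 41.46%, lay just above the highest null share, 41.45%, a gap smaller than the SD of either group. Stx3 held 34.3% ± 1.01 and 35.0% ± 1.58 and Stx1a 12.7% ± 0.45 and 13.5% ± 0.85 (SD, 3 animals each), with overlapping groups for both. By transcript level Stx4a and Stx3 led these 4 in all 6 libraries.

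The other SNAREs, which act mainly between endoplasmic reticulum, Golgi and endosomes, were read from a fixed list of 32 symbols, of which 30 were in the table and 27 were tested. None passed over all genes, 7 had a positive and 20 a negative difference, and the median was -0.05. Of all tested genes 38.3% had a positive difference, and their median was -0.03. At an unadjusted p under 0.05, 0 were higher and 1 lower, Vti1b, an endosomal SNARE, at 29.3 ± 1.15 RPKM in the wild-type group against 26.0 ± 0.84 RPKM in null islets (SD, 3 animals each, limma adjusted p = 0.52). For comparison, 1.46% of all tested genes were higher and 7.9% lower at that level. The most abundant were Stx5a and Sec22b, both of the route between endoplasmic reticulum and Golgi, at 41.3 ± 4.57 and 39.8 ± 0.65 RPKM in the wild-type group against 41.5 ± 3.52 and 36.6 ± 1.33 RPKM in null islets (SD, 3 animals each). Bet1l and Vamp4, SNAREs of the Golgi, had differences of -0.21 and -0.13 (limma adjusted p = 0.54 and 0.61). Gosr2 and Snap47 were at -0.12 and -0.01 and Snap23 at 0.02.

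The other priming, tethering and regulator genes numbered 38, all in the table, with 28 tested. None passed over all genes, 20 were positive and 8 negative, and the median was 0.05. Over all tested genes 38.3% were positive. At an unadjusted p under 0.05, 1 was higher and 2 were lower, against 1.46% and 7.9% of all tested genes. Snph, which encodes syntaphilin, was at 8.34 ± 0.30 RPKM in the wild-type group against 9.84 ± 1.06 RPKM in null islets (SD, 3 animals each, limma adjusted p = 0.52). Stxbp3a, the MUNC18 form that binds syntaxin 4, was at 10.3, 11.0 and 11.6 RPKM in the wild-type group against 9.45, 9.23 and 9.67 RPKM in null islets. All null libraries lay below all wild-type libraries, as they did for 13.2% of all tested genes. The difference of Stxbp3a was -0.19 (SE 0.07, limma adjusted p = 0.49). Its syntaxin partner Stx4a had a difference of -0.23, with overlapping groups, and a joint change of the pair was not tested. Stxbp5l, a tomosyn that binds syntaxin and holds it from fusion, was at 1.64 ± 0.24 and 1.14 ± 0.16 RPKM (SD, 3 animals each, limma adjusted p = 0.49).

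The abundant regulators overlapped between groups. Napa, which recycles SNARE complexes, was at 50.4 ± 1.18 and 53.1 ± 3.28 RPKM in the wild-type and null groups (SD, 3 animals each). The RAB effectors Rph3al and Sytl4 had differences of 0.14 and -0.02. Rimbp2, a RIM-binding protein, was at 54.1, 39.4 and 56.1 RPKM in the wild-type group against 56.0, 59.1 and 64.3 RPKM in null islets, a difference of 0.27 (SE 0.14, limma adjusted p = 0.58). As for its partner Rims2, wild type replicate 2 was the lowest library. The Rimbp2 difference was 0.11 without that library and 0.10 with the acinar mean as a covariate. With libraries scaled to equal totals without the acinar markers it was 0.33. Baiap3, a MUNC13 relative, had a difference of -0.06, Unc13b 0.12 and Cadps2 0.03.

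Markers of other cells that express some of these genes were set beside them. Of 12 neuronal and Schwann cell markers 7 were tested, with 5 positive and 2 negative differences, a median of 0.02, and list means of 2.72 to 2.84 in wild type and 2.67 to 3.00 in null libraries. Th, an enzyme of catecholamine synthesis, was at 23.8 ± 3.26 and 27.2 ± 8.21 RPKM in the wild-type and null groups (SD, 3 animals each). Acinar markers were higher in null islets in 15 of 15 differences, against 38.3% of all tested genes, with overlapping list means. Wild type replicate 2 held the lowest value for 14 of these 15, so they are not separate results. The 4 delta cell markers were lower in 4 of 4, as were 7809 of 12652 tested genes. Their groups did not overlap, as for 13.2% of all tested genes in that direction. The part of these cell types in the levels of the 9 genes was not tested.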

How the data were processed

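The table holds RPKM values per RefSeq transcript made by the authors, per the file headers, 1 column for each of 6 animals. Per the submitters' processing notes the build was mm9 and the tools included STAR, bedtools and DESeq, whose versions and roles are not given. Counting of shared reads and use of strand are not given in the sources used here. Of 28129 rows, 117 without values and 1 with text in a value were left out. The transcript with the highest mean was kept per symbol, and 12652 symbols averaging at least 1 RPKM were tested as log2(RPKM + 1) in limma 3.58.1 (R 4.3.3), with genotype as the only term, a mean trend and Benjamini-Hochberg adjustment over all tested genes. This scale understates changes of low genes. Members and lists were chosen with earlier results of these data known. Named were all members, their paralogs, and per list the 6 most abundant genes and the 4 with the smallest p. Some genes and sequences that this rule or the lists hold are not reported here.

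Reads and depth were estimated from RPKM, transcript lengths in GENCODE M21 (another build, matched for 96.2% of rows) and steps between low values, of which 76.1% to 77.2% were whole within 0.1 read. Numbers of reads cover counting error only. Coordinates belong to the printed GRCm38 sequences, not to the table. Paralog ratios used exact permutation tests (scipy 1.17.1). The fit was tested on simulated data, 14 other settings were run, and 2 more were added after seeing the data: limma-voom on estimated reads and a length correction. Figures used matplotlib 3.10.9.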

Additional observations from a re-analysis of the deposited data

How the results depend on the processing

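None of the 9 genes passed in any of 16 alternatives. None of the 7 ratios could pass in their 8, so that count says nothing on how firm they are. The exact permutation test cannot go below p = 0.1 with 3 against 3 animals, or below 0.2 with 1 library left out. No paired analysis was possible because the labels give no replicate numbers or litter that tie a null to a wild-type animal. The number of all genes changed was 4 without a filter on low values, 4 with limma-voom on estimated reads, 1 with the acinar mean as a covariate, 1 with the length line removed, and 1 to 5 with 1 library left out. Scaling moved the median of all genes from -0.034 to between -0.004 and 0.018. Stx4a, Vamp3, Snap25, Unc13a and Rims2 kept their sign in all alternatives. Their ranges were -0.306 to -0.101 for Stx4a, -0.170 to -0.049 for Vamp3, 0.012 to 0.273 for Snap25, 0.167 to 0.316 for Unc13a and 0.044 to 0.217 for Rims2, and the values nearest 0 for Stx4a, Snap25 and Rims2 were those with the acinar covariate.

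The following differences changed sign, from 0.147 for Cadps, 0.138 for Rph3al, -0.123 for Gosr2 and values nearer 0 for the others; the cause was not tested. With the acinar covariate Stx1a was 0.0078, Cplx2 -0.0045, Cadps -0.034, Baiap3 0.161, Cadps2 -0.020, Gosr2 0.105, Rph3al -0.029, Snap23 -0.073 and Snap47 0.089. With limma-voom Vamp2 was -0.0067, Cplx2 -0.034, Cadps2 -0.016, Snap23 -0.030 and Stx5a -0.045. With the length line removed Cplx2 was -0.0027 and Snap47 0.0005. With median-ratio, upper-quartile and acinar-free scaling Snap47 was 0.044, 0.028 and 0.054, and Sytl4 0.028, 0.012 and 0.038. With 1 library left out the ranges were -0.150 to 0.0051 for Stx1a, -0.019 to 0.047 for Cplx2, -0.059 to 0.095 for Stx5a, -0.053 to 0.072 for Snap23, -0.053 to 0.048 for Snap47, -0.189 to 0.032 for Baiap3, -0.024 to 0.056 for Cadps2 and -0.104 to 0.040 for Sytl4. The log2 ratio of Cplx2 to Cplx1 was -0.055 with a pseudocount of 0.1 and -0.044 to 0.069 with 1 library left out.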
